A study of Mus musculus and Homo sapiens with 30 samples.

Results

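The genes described here are those of the ATF4 and CHOP stress response together with Chac1. They are 10 mouse genes (Atf4, Atf5, Cebpb, Ddit3, Atf3, Trib3, Chac1, Sesn2, Ddit4 and Ppp1r15a) of 56980 gene IDs in the mouse table, and 8 human genes (ATF4, ATF5, DDIT3, ATF3, TRIB3, CHAC1, SESN2 and DDIT4) of 61552 gene IDs in the human table. They were taken by name from this pathway, with earlier results of these data known, and all 10 mouse and all 8 human genes had enough counts to be tested. The study exposed cultured mammary cells to medium conditioned by fat cells of the inguinal depot and sequenced their poly(A) RNA in 30 libraries. The mouse lines were E0771, a mammary cancer line, and NMuMG, a line derived from mouse mammary gland epithelium that the labels also list as breast cancer. The human line was SkBr3, a breast cancer line. E0771 and SkBr3 were kept in DMEM with 10% FBS. The DMEM of NMuMG, also with 10% FBS, contained insulin at 10 mcg/ml and glucose at 4.5 g/L. The labels give neither insulin nor glucose for E0771 and SkBr3. After 36 h of growth, each line received 1 of 3 media for 16 h: its own growth medium (control), or a mixture of 50% secretome from lean or from obese inguinal adipocytes and 50% growth medium. There were 3 replicates per medium in E0771 and in NMuMG and 4 in SkBr3. The labels do not give the species of the adipocytes or say whether replicates came from separate cultures or separate secretome batches, so the tests measure the spread between these libraries, which may be technical.

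The integrated stress response joins several alarms to a single output. Kinases that sense amino acid shortage, unfolded protein in the endoplasmic reticulum, viral RNA or mitochondrial and haem stress phosphorylate the initiation factor eIF2, which slows general protein synthesis but raises translation of ATF4. ATF4 and its target CHOP, the product of Ddit3, then switch on genes for amino acid supply, for feedback and, under lasting stress, for cell death. Chac1 is a well known output of this pathway and encodes an enzyme that breaks down glutathione, the cosubstrate of the lipid peroxide defence that fails in ferroptosis. ATF4 and ATF5 are controlled to a large part at translation, so the mRNA levels given here are no measure of the proteins.

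Library totals ranged from 18479433 to 31094119 counts, and no member value in SkBr3, where groups had 4 libraries, stood apart from its group. Values are given as CPM, the read counts of a gene scaled to a fixed library total, computed with TMM library sizes. Differences are log2 fold changes from edgeR's quasi-likelihood test, with the standard error (SE). A gene was called where its p, adjusted by the Benjamini-Hochberg method over all genes tested in that line, was under 0.05. Of 5 epithelial markers, Krt8, Krt18 and Cdh1 were at a mean of 3434, 2515 and 541 CPM in NMuMG in control medium, Epcam was at 2.18 and Cldn7 was at 0. In E0771, Krt8 was at 255 CPM in control medium, while Krt18, Epcam, Cdh1 and Cldn7 did not pass 0.290 CPM in any library.

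In E0771, lean secretome divided the response. It lowered Atf4, Cebpb, Trib3, Chac1, Sesn2 and Ddit4 relative to obese secretome, raised Atf3 and Ppp1r15a, and left Atf5 and Ddit3 without a call. Chac1 was 2.49-fold lower and Sesn2 1.95-fold lower with lean than with obese secretome, and Atf3 was 2.64-fold higher. The 8 called members, 2 higher and 6 lower, stand beside 52.7% of all 13813 genes called in the same comparison (25.8% higher and 26.9% lower). The median log2 difference was -0.54 over the 10 members and 0.00 over all genes, and the median size of the difference was 0.62 and 0.24. In 8 of the 10 members the lean and obese libraries did not overlap, which held for 60.1% of all genes. In cultures such as these, a smaller share of expressing cells and less RNA per cell cannot be told apart.

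**Figure D1:**
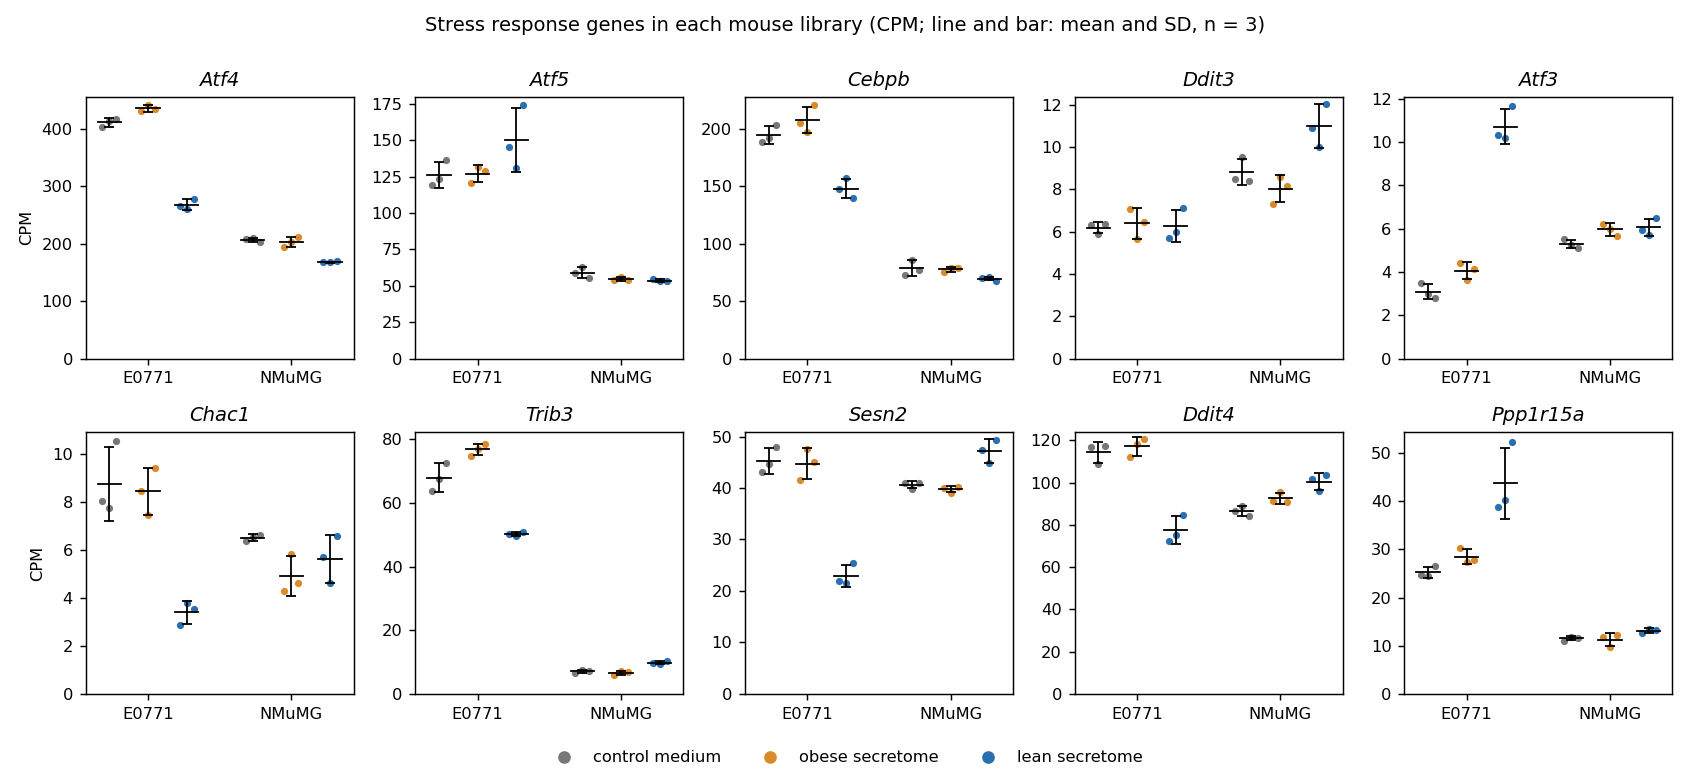
Levels of the 10 mouse genes in each library of E0771 and NMuMG (CPM, linear axis) in control medium, lean secretome and obese secretome. Each point is 1 library, with a line at the mean and a bar for the standard deviation of the 3 libraries. In E0771 the lean libraries lie below both other media for Atf4, Cebpb, Trib3, Chac1, Sesn2 and Ddit4 and above them for Atf3 and Ppp1r15a. In NMuMG the lean libraries of Trib3, Ddit3, Sesn2, Ddit4 and Ppp1r15a lie above both other media, and those of Atf4 and Cebpb lie below them.

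Among the transcription factors, Atf4, at the centre of the response, was at 402, 414 and 417 CPM in the E0771 control libraries, at 266, 259.7 and 278 with lean secretome and at 429.9, 442 and 434 with obese secretome. Every lean library was below every other, while the obese libraries lay just above the control ones. The difference between lean and obese was -0.70 (SE 0.0365, adjusted p = 4.63e-13, edgeR's quasi-likelihood test with Benjamini-Hochberg adjustment), and that between lean and control was -0.62 (SE 0.0365).

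Cebpb encodes a leucine zipper factor of the C/EBP family that pairs with ATF4 and CHOP. Its E0771 levels were 188, 192 and 203 CPM in control medium, 147, 157 and 139.6 with lean secretome and 205, 197.5 and 220.3 with obese secretome. The lean libraries were again the lowest, and control and obese overlapped. Lean minus obese was -0.49 (SE 0.0473, adjusted p = 8.16e-09 by edgeR with Benjamini-Hochberg adjustment). In the M21 annotation 20.7% of the exon bases of Cebpb lie opposite exons of Tmem189, and the strand setting of the counting was not given in the sources used here.

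Atf3, a stress-induced factor that lies downstream of ATF4 and of other signals, went the other way. It was at 3.48, 3.00 and 2.80 CPM in E0771 control libraries, at 10.3, 10.2 and 11.7 with lean secretome and at 4.41, 3.62 and 4.14 with obese secretome. Its lean libraries were far above the rest, with no overlap. Lean minus obese was 1.40 (SE 0.121, adjusted p = 9.55e-10 by edgeR with Benjamini-Hochberg adjustment) and lean minus control was 1.79 (SE 0.126).

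Ddit3 encodes CHOP, the factor most often linked to death under lasting stress. It was at 6.33, 5.89 and 6.35 CPM in control medium, at 5.68, 5.98 and 7.12 with lean secretome and at 7.09, 5.63 and 6.45 with obese secretome. All 3 groups overlapped, and the difference between lean and obese was -0.03, with a 95% interval from -0.27 to 0.21. The annotation holds a further gene ID named Ddit3, which shares 105 exon bases with the one used and had 0 counts in all 18 mouse libraries. Atf5, a relative of Atf4 with a role in mitochondrial stress, was at 119, 123 and 136 CPM in control medium, 145, 131 and 174 with lean secretome and 121, 131 and 129 with obese secretome. Lean library 2 lay within the other groups, and the difference of 0.24 between lean and obese did not pass (SE 0.103, adjusted p = 0.0860 by edgeR with Benjamini-Hochberg adjustment). Without that library it was 0.33 and passed (adjusted p = 0.00202), and it passed in 3 of 14 alternatives in all, no filter on low counts among them (adjusted p = 2.38e-05). Against control medium Atf5 was at 0.25 (adjusted p = 0.0715) and passed in 5 of 14 alternatives, among them without lean replicate 2 (0.34, adjusted p = 0.00146), without control replicate 3 (0.32, adjusted p = 0.0462), with DESeq2 (0.26, adjusted p = 0.0443) and with no filter on low counts (0.25, adjusted p = 5.16e-06).

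Among the outputs, Chac1 showed the largest decrease of the 10 members in E0771. Chac1 acts as a gamma-glutamylcyclotransferase on glutathione. Its levels were 8.02, 7.72 and 10.5 CPM in control medium, 2.86, 3.77 and 3.54 with lean secretome and 8.46, 7.44 and 9.39 with obese secretome. The lean libraries were the lowest without overlap, and the control and obese libraries were interleaved. Lean minus control was -1.36 (SE 0.143, adjusted p = 1.79e-08), and lean minus obese was -1.31 (SE 0.143, adjusted p = 3.93e-08, both by edgeR with Benjamini-Hochberg adjustment).

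Trib3 encodes a pseudokinase that binds ATF4 and CHOP and restrains them. It was at 63.7, 67.6 and 72.7 CPM in control medium, 50.2, 49.5 and 50.7 with lean secretome and 74.9, 77.1 and 78.5 with obese secretome. Here the obese libraries were above all control libraries and the lean ones below. Lean minus obese was -0.62 (SE 0.0517, adjusted p = 6.41e-10 by edgeR with Benjamini-Hochberg adjustment).

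Sesn2 and Ddit4 encode sestrin 2, a leucine sensor, and REDD1, which both restrain the growth kinase complex mTORC1. Sesn2 was at 43.1, 44.7 and 48.0 CPM in control medium, 21.9, 21.5 and 25.4 with lean secretome and 41.6, 47.6 and 45.1 with obese secretome. Ddit4 was at 117, 109 and 118 CPM in control medium, 72.6, 75.4 and 84.8 with lean secretome and 112, 118 and 121 with obese secretome. Both genes were lowest in the 3 lean libraries and overlapped between control and obese. Their lean minus obese differences were -0.96 (SE 0.0698) for Sesn2 and -0.59 (SE 0.0532) for Ddit4.

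Ppp1r15a encodes GADD34, the subunit that directs a phosphatase to eIF2 and so ends the response. It was at 24.6, 24.4 and 26.6 CPM in control medium, 38.7, 40.3 and 52.2 with lean secretome and 30.2, 27.4 and 27.8 with obese secretome. It was the only member besides Atf3 that rose with a call in lean secretome in E0771. Lean minus obese was 0.62 (SE 0.0941, adjusted p = 4.13e-05 by edgeR with Benjamini-Hochberg adjustment), and the third lean library was the highest.

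Against control medium the same 8 members were called in E0771, again with 2 higher and 6 lower, where 56.3% of all genes were called (27.3% higher and 29.0% lower). Both lean comparisons use the same lean libraries. Each of these 8 calls held in both comparisons under all 14 alternative settings tried. Fibroblast markers also moved with the lean medium in E0771: the summed level of 4 markers was 760.1 to 845 CPM in control, 293 to 321 with lean and 532 to 729 with obese secretome. Only Col1a1 and Pdgfra of the 4 were tested, with Col1a2 and Dcn near 0. Most of the fall was in Col1a1, at means of 687, 204 and 524 CPM in control, lean and obese media. Pdgfra was at 117, 101 and 116 CPM in the same order. The part of these genes in the result was not tested. The 6 adipocyte markers summed to at most 0.262 CPM in any E0771 library, and the 4 macrophage and 3 endothelial markers to at most 3.23 and 5.63 CPM. Of the endothelial markers, Pecam1 was lower with lean than with obese secretome in E0771 (2.41 against 4.43 CPM, -0.88 on the log2 scale, adjusted p = 0.000304 by edgeR with Benjamini-Hochberg adjustment), and its part in the result was not tested either.

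The promoters of 3 members carried a short motif known from this pathway, and they include the members with the largest change in each direction in E0771, so they are shown here. A search of both strands of the 250 bases before each RefSeq start site (GRCm38.p6) covered all 10 mouse genes through 11 promoters. The composite site that ATF4 binds with a C/EBP partner was searched as TGATGNAA and was found in 2 of the 11, those of Atf3 and Chac1, and in 3.45% of 32851 promoters. The cyclic AMP response element was searched as TGACGTCA and was found in 1 of the 11, that of Ppp1r15a, and in 1.55% of all. The endoplasmic reticulum stress element, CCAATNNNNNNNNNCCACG, was in none of the 11 and in 0.113% of all. The 3 promoters are given 5′ to 3′ on the strand of the gene, from base -200 to -1 before the start site, with the match in capitals. TTGCATCA is the reverse complement of a TGATGNAA match. They lie at chr1:191183334-191183533 on the minus strand (Atf3), chr2:119351042-119351241 on the plus strand (Chac1) and chr7:45526269-45526468 on the minus strand (Ppp1r15a).
Atf3: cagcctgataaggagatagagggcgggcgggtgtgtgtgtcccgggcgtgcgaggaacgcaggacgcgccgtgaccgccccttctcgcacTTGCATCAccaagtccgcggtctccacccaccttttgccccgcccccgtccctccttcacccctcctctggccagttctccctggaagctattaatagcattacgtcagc
Chac1: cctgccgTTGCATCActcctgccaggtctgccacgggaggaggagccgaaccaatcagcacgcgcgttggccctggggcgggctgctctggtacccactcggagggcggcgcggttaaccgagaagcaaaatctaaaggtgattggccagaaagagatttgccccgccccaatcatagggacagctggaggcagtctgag
Ppp1r15a: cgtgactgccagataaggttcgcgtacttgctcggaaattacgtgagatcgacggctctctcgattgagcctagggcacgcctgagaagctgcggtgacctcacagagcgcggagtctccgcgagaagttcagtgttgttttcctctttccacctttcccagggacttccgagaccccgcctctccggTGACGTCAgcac

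The match lay at -110 to -103 in Atf3, at -193 to -186 in Chac1 and at -12 to -5 in Ppp1r15a. Atf3 and Chac1 thus share the same 8 letters, while in E0771 with lean secretome Atf3 rose and Chac1 fell. The matches describe letters only, and no binding was measured.

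In NMuMG the changes were smaller and the pattern differed. Lean secretome raised Trib3, Ddit3, Sesn2, Ppp1r15a and Ddit4 relative to obese secretome and lowered Atf4 and Cebpb. Chac1, Atf3 and Atf5 were not called. The 7 called members, 5 higher and 2 lower, stand beside 35.0% of all 15014 genes called (17.6% higher and 17.4% lower), and the median log2 difference over the members was 0.16. The lean and obese libraries did not overlap in 7 members, which held for 45.2% of all genes.

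Atf4 in NMuMG was at 208, 209 and 203 CPM in control medium, 167, 167 and 169 with lean secretome and 194, 203 and 211 with obese secretome. The lean libraries were the lowest, as in E0771, and lean minus obese was -0.27 (SE 0.0351, adjusted p = 1.44e-07 by edgeR with Benjamini-Hochberg adjustment). Cebpb was at 72.5, 86.0 and 77.3 CPM in control medium, 69.9, 70.7 and 67.9 with lean secretome and 75.3, 78.9 and 78.8 with obese secretome. Its lean libraries were also below all others, with a lean minus obese difference of -0.16 (SE 0.0486).

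Trib3 showed the largest difference among the NMuMG members. It was at 6.58, 7.45 and 7.29 CPM in control medium, 9.85, 9.28 and 10.4 with lean secretome and 5.97, 7.25 and 6.84 with obese secretome. Only the lean libraries stood apart, above the rest, and lean minus obese was 0.56 (SE 0.103, adjusted p = 5.68e-05 by edgeR with Benjamini-Hochberg adjustment). Ddit3 was at 8.50, 9.51 and 8.39 CPM in control medium, 10.9, 9.98 and 12.1 with lean secretome and 7.32, 8.57 and 8.17 with obese secretome. All 3 lean libraries were above the rest, and lean minus obese was 0.45 (SE 0.0987, adjusted p = 0.000447 by the same test).

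Sesn2 was at 41.1, 39.9 and 40.9 CPM in control medium, 47.5, 44.8 and 49.3 with lean secretome and 40.0, 39.1 and 40.2 with obese secretome. Its lean libraries were above all others, and lean minus obese was 0.25 (SE 0.0505). Ddit4 ranged from 84.0 to 89.0 CPM in control medium, from 96.0 to 104 with lean secretome and from 90.7 to 95.7 with obese secretome. Its control libraries were the lowest, its obese libraries next and its lean libraries the highest, without overlap, and lean minus obese was 0.12 (SE 0.0409, adjusted p = 0.0215 by edgeR with Benjamini-Hochberg adjustment). Ppp1r15a ranged from 12.7 to 13.5 CPM with lean and from 9.69 to 12.2 with obese secretome, a difference of 0.23 (SE 0.0880, adjusted p = 0.0417 by the same test). The call of Ddit4 was lost when lean replicate 1 or 3 or obese replicate 1 or 3 was left out (adjusted p 0.0583 to 0.0919). That of Ppp1r15a was lost in 7 of 14 alternatives: without control replicate 1 (adjusted p = 0.0506), lean replicate 2 (0.119) or 3 (0.0850) or obese replicate 2 (0.300), with no filter on low counts (0.0662), with only the 2 groups compared (0.0573) and with DESeq2 (0.0787).

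Chac1 in NMuMG was at 6.35, 6.53 and 6.61 CPM in control medium, 5.68, 4.60 and 6.57 with lean secretome and 4.27, 5.84 and 4.60 with obese secretome. Lean and obese libraries overlapped, and their difference of 0.19 had a 95% interval from -0.07 to 0.46 (adjusted p = 0.282 by edgeR with Benjamini-Hochberg adjustment). That interval lies wholly above the E0771 value of -1.31. Atf3 ranged from 5.71 to 6.49 CPM with lean and from 5.66 to 6.22 with obese secretome, and the interval of its difference was -0.20 to 0.25. Atf5 ranged from 53.0 to 54.7 CPM with lean and from 54.0 to 56.4 with obese secretome, and its interval was -0.13 to 0.06.

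Against control medium, 7 members were called in NMuMG, where 38.2% of all genes were called (19.1% higher and 19.1% lower). Trib3 (0.47), Ddit3 (0.32), Ddit4 (0.22) and Sesn2 (0.22) rose, and Atf4 (-0.30), Cebpb (-0.18) and Atf5 (-0.14) fell. Without control replicate 2, which held the highest Atf5 and Cebpb values, Atf5 was at -0.09 (adjusted p = 0.159) and Cebpb at -0.11 (adjusted p = 0.0801). Without lean replicate 2 Atf5 was also not called (adjusted p = 0.0534), and without lean replicate 3 Ddit3 was not (0.25, adjusted p = 0.0664). The summed level of the 5 epithelial markers also moved with lean secretome in NMuMG. It was 6336 to 6697 CPM in control medium, 7060 to 7215 with lean and 6031 to 6433 with obese secretome. Krt8 was at means of 3434, 3816 and 3323 CPM in control, lean and obese media. Krt18 was at 2515, 2775 and 2431 and Cdh1 at 541, 522 and 479 in the same order. The 4 fibroblast markers there summed to 5.65 to 6.19 CPM in control medium, 3.19 to 3.38 with lean and 3.76 to 4.64 with obese secretome, and Col1a1 was at -0.50 for lean minus obese (adjusted p = 0.0131 by edgeR with Benjamini-Hochberg adjustment). Of the 6 adipocyte markers only Cidec was tested there. Their sum was 2.02 to 2.08 CPM with lean secretome and at most 0.973 in the other media, and Plin1, Lep and Cfd were at 0 in every NMuMG library. The part of these genes in the result was not tested.

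**Figure D2:**
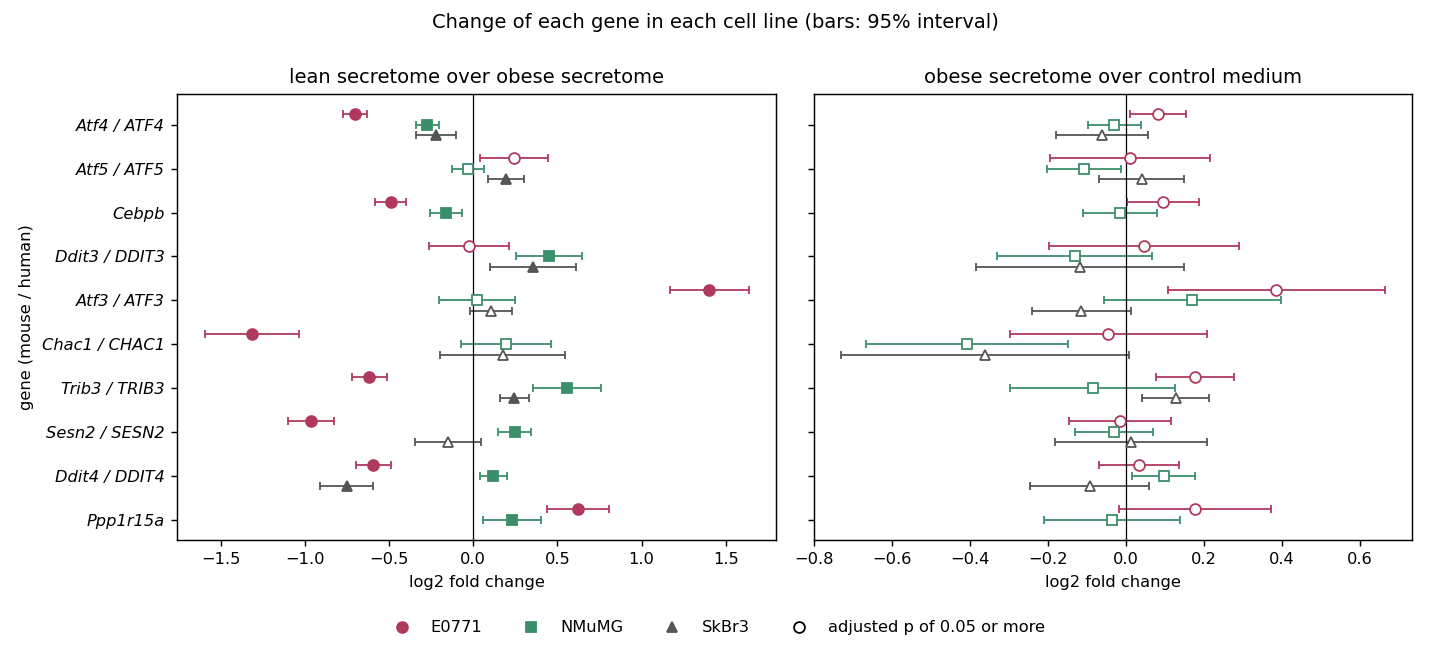
Log2 differences of the member genes in each line for lean minus obese and obese minus control, from edgeR, with 95% intervals as bars. In E0771 Chac1 lies at -1.31 and Atf3 at 1.40 for lean minus obese, in NMuMG the members lie between -0.27 and 0.56, and for obese minus control no member was called in any line.

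Whether the members answered lean secretome differently in E0771 and NMuMG was tested as an interaction over all 18 mouse libraries. Of the 10 members, 9 differed for lean against obese secretome, 7 with a lower and 2 with a higher value in E0771, beside 34.2% of 16529 genes (15.5% lower and 18.8% higher). For lean secretome against control medium 9 members differed as well, 6 lower and 3 higher, beside 34.5% of genes (15.1% lower and 19.4% higher). The interaction was -1.49 for Chac1 (SE 0.205, adjusted p = 2.12e-07), -1.19 for Sesn2 (SE 0.0874, adjusted p = 7.86e-14) and -1.15 for Trib3 (SE 0.105, adjusted p = 1.93e-11), all from edgeR with Benjamini-Hochberg adjustment. Trib3, Sesn2 and Ddit4 were called in both lines in opposite directions, lower in E0771 and higher in NMuMG. Ppp1r15a was called higher in both, with an interaction of 0.41. Atf4 and Cebpb were called lower in both, and more so in E0771, with interactions of -0.41 and -0.31. Atf3, with an interaction of 1.40, rose in E0771 and was not called in NMuMG. Ddit3 had an interaction of -0.46 (adjusted p = 0.0197), which was lost in 4 of 22 alternatives, which left out E0771 lean replicate 1, E0771 obese replicate 1, NMuMG lean replicate 3 or NMuMG obese replicate 1 (adjusted p 0.0509 to 0.0795). For Ppp1r15a it was lost without E0771 lean replicate 3 (0.26, adjusted p = 0.0598) and without NMuMG obese replicate 1 (adjusted p = 0.0513) or 3 (adjusted p = 0.0667). Atf5 had 0.29 and was not called (adjusted p = 0.0923), but it was called without E0771 lean replicate 2 (0.38, adjusted p = 0.00151), with no filter on low counts and with DESeq2 (adjusted p = 0.0325). The labels give insulin and glucose only for the growth medium of NMuMG. Line and growth medium therefore cannot be told apart in these values.

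With obese secretome no member was called against control medium in any line by edgeR, where 2.61% of genes in E0771, 5.01% in NMuMG and 1.16% in SkBr3 were called. At an unadjusted p under 0.05 there were 3 members in E0771 (15.4% of all genes), 3 in NMuMG (16.6%) and 1 in SkBr3 (13.7%), and DESeq2 called 1, 0 and 0. The member nearest to a call in E0771 was Trib3, at 0.18 (SE 0.0511, adjusted p = 0.0640 by edgeR with Benjamini-Hochberg adjustment), which DESeq2 called (adjusted p = 0.0360). It was also called without control replicate 3 (0.24, adjusted p = 0.0120) or lean replicate 3 (adjusted p = 0.0265). In NMuMG the nearest was Chac1, at -0.41 (SE 0.132, adjusted p = 0.0682), which was called without obese replicate 2 (-0.55, adjusted p = 0.0149) or lean replicate 3 (adjusted p = 0.0460). In SkBr3 it was TRIB3, at 0.13 (SE 0.0436, adjusted p = 0.159), which was called without lean replicate 3 (adjusted p = 0.0330). The interaction of the obese effect between the mouse lines was called for 0 of 10 members by edgeR, beside 1.69% of genes, with 2 at an unadjusted p under 0.05 (13.2% of all genes) and 0 by DESeq2.

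The levels of the members in control medium also set the mouse lines apart. Between genes, levels are compared per kilobase of exon (CPM per kb, mean ± SD, n = 3). In E0771 control libraries the order ran from Atf4 at 174 ± 3.20 and Cebpb at 129 ± 4.97 through Ddit4 at 65.2 ± 2.81, Atf5 at 63.3 ± 4.55 and Trib3 at 32.0 ± 2.13. It went on with Sesn2 at 13.0 ± 0.712, Ppp1r15a at 8.58 ± 0.415, Chac1 at 5.35 ± 0.938, Ddit3 at 3.61 ± 0.154 and Atf3 at 1.44 ± 0.161. Of these neighbours, only Ddit4 and Atf5 differed by less than their spread. With lean secretome in E0771, Chac1 moved from the eighth to the last place, at 2.07 ± 0.290 CPM per kb, and Atf3 from the last to the eighth, at 4.98 ± 0.378.

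In NMuMG control libraries Atf4 at 87.7 ± 1.54 CPM per kb was followed by Cebpb at 52.3 ± 4.55, Ddit4 at 49.3 ± 1.42, Atf5 at 29.7 ± 1.88 and Sesn2 at 11.7 ± 0.186. The low end held Ddit3 at 5.14 ± 0.361, Chac1 at 3.97 ± 0.0841, Ppp1r15a at 3.92 ± 0.138, Trib3 at 3.34 ± 0.218 and Atf3 at 2.45 ± 0.0921. Cebpb and Ddit4, and likewise Chac1 and Ppp1r15a, differed by less than their spread. Between the lines in control medium 9 of 10 members were called, 7 higher and 2 lower in E0771, beside 80.5% of all genes (37.1% higher and 43.4% lower). Trib3 had the largest difference, 3.14 in favour of E0771 (SE 0.0706, adjusted p = 7.09e-34 by edgeR with Benjamini-Hochberg adjustment). Cebpb (1.19), Ppp1r15a (1.01), Atf5 (0.97), Atf4 (0.87), Chac1 (0.30) and Ddit4 (0.28) were also higher in E0771, and Atf3 (-0.89) and Ddit3 (-0.63) were lower. The call of Chac1 was lost when E0771 control replicate 3 was left out (0.15, adjusted p = 0.310) or when any 1 of the 3 NMuMG control libraries was (adjusted p 0.0604 to 0.0875).

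In SkBr3, ATF4 and DDIT4 fell and TRIB3, ATF5 and DDIT3 rose with lean against obese secretome. These 5 of 8 members stand beside 44.1% of 14874 genes called (21.1% higher and 23.1% lower). The median size of the difference was 0.21 over the members and 0.19 over all genes. The lean and obese libraries did not overlap for 2 members, TRIB3 and DDIT4, which held for 34.7% of all genes.

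DDIT4 had the largest difference among the SkBr3 members. It was at 128, 121, 139 and 130.3 CPM in control medium, 73.8, 65.7, 78.4 and 71.8 with lean secretome and 107, 137, 131 and 112 with obese secretome. The 4 lean libraries were below the other 8. Lean minus obese was -0.75 (SE 0.0799, adjusted p = 1.03e-05) and lean minus control was -0.84 (SE 0.0802, adjusted p = 1.86e-06, both by edgeR with Benjamini-Hochberg adjustment).

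TRIB3 was at 291, 301, 310.3 and 309 CPM in control medium, 402, 388, 362 and 415 with lean secretome and 343, 309, 323 and 348 with obese secretome. The lean libraries were the highest, and lean minus obese was 0.24 (SE 0.0434, adjusted p = 0.000105 by edgeR with Benjamini-Hochberg adjustment). ATF4 was at 235, 238, 246 and 239 CPM in control medium, 201, 203, 172 and 212 with lean secretome and 205, 244, 245 and 225 with obese secretome. The first obese library lay among the lean ones, and lean minus obese was -0.22 (SE 0.0602, adjusted p = 0.00747 by the same test). ATF5 was at 41.7, 38.6, 39.5 and 42.1 CPM in control medium, 47.0, 49.4, 42.4 and 50.9 with lean secretome and 43.2, 42.6, 39.7 and 41.0 with obese secretome, and lean minus obese was 0.19 (SE 0.0547, adjusted p = 0.00654 by the same test). The third lean library of ATF5 lay within the obese range and the others above it.

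DDIT3 was at 4.11, 5.32, 4.99 and 4.88 CPM in control medium, 6.19, 6.18, 4.44 and 5.83 with lean secretome and 3.98, 4.66, 3.77 and 5.31 with obese secretome. Its groups overlapped, and the difference of 0.36 between lean and obese (SE 0.131, adjusted p = 0.0319 by edgeR with Benjamini-Hochberg adjustment) was lost when lean replicate 1, 2 or 4 or obese replicate 1 or 3 was left out (adjusted p 0.0658 to 0.114). CHAC1 was at 1.69 to 2.43 CPM with obese, 1.82 to 2.97 with lean secretome and 2.33 to 3.62 in control medium. Its lean minus obese difference of 0.18 had a 95% interval from -0.19 to 0.55. ATF3 (0.10, interval -0.02 to 0.23) and SESN2 (-0.15, interval -0.34 to 0.05) were not called. ATF3 was called when obese replicate 4, its highest obese library, was left out (0.18, adjusted p = 0.0239). Against control medium 4 of 8 members were called, beside 48.8% of genes (23.7% higher and 25.1% lower): TRIB3 (0.37) and ATF5 (0.23) higher, and DDIT4 (-0.84) and ATF4 (-0.28) lower. DDIT3 at 0.24 was called there only when lean replicate 3 was left out (0.32, adjusted p = 0.0309).

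**Figure D3:**
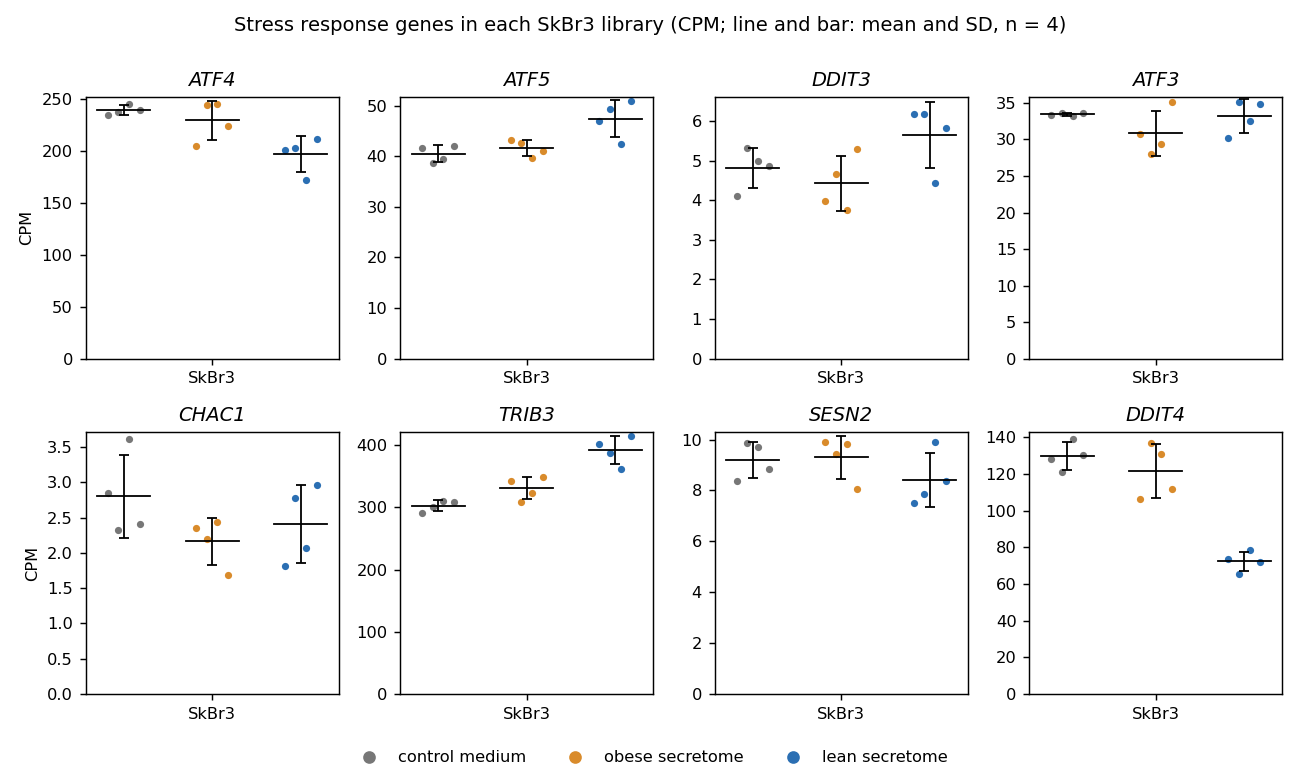
Levels of the 8 human genes in each SkBr3 library (CPM, linear axis) in control medium, lean secretome and obese secretome. Each point is 1 library, with a line at the mean and a bar for the standard deviation of the 4 libraries. The lean libraries of DDIT4 lie at 65.7 to 78.4 CPM, below all others, and those of TRIB3 at 362 to 415, above all others, while the groups of CHAC1, ATF3 and SESN2 overlap.

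Across the lines, ATF4 was lower with lean than with obese secretome in all 3 (E0771 -0.70, NMuMG -0.27, SkBr3 -0.22). TRIB3 was lower in E0771 (-0.62) but higher in NMuMG (0.56) and SkBr3 (0.24). DDIT4 was lower in E0771 (-0.59) and SkBr3 (-0.75) and higher in NMuMG (0.12). Differences between SkBr3 and the mouse lines were not tested, because the tables are of different species.

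The neighbours of these genes in the pathway were followed through gene lists in the mouse lines. Each list count for lean against obese secretome stands beside 25.8% of all genes higher and 26.9% lower in E0771, and 17.6% higher and 17.4% lower in NMuMG. Upstream, the list of eIF2 kinases and eIF2 regulators had 16 tested genes in each line. In E0771, 6 were higher and 7 lower with lean than with obese secretome, with a median of -0.04, where 52.7% of all genes were called. In NMuMG 1 was higher and 1 lower, with a median of 0.03, where 35.0% of all genes were called. In E0771 the kinase genes split: Eif2ak2, encoding PKR, was at -0.45 and Eif2ak3, encoding PERK, at -0.38, while Eif2ak4, encoding GCN2, was at 0.20 and Eif2ak1, encoding HRI, at 0.12. Dele1 and Oma1, which relay mitochondrial stress to HRI, fell by 0.55 and 0.47 on the log2 scale in E0771. Eif2b4 of the same list rose there by 0.56. None of the 4 kinase genes was called in NMuMG, where their differences lay between 0.04 and 0.08.

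Downstream, 29 other ATF4 target genes were listed, of which Nars1 was not matched. In E0771, 3 of 25 tested were higher with lean than with obese secretome and 17 lower, with a median of -0.26 (all genes 25.8% and 26.9%). Pck2, mitochondrial PEP carboxykinase, was at -1.69 (mean 54.0 CPM with lean, 174 with obese), Aldh1l2 of the mitochondrial folate cycle at -1.24 and Gpt2, an alanine aminotransferase, at -0.90. Other enzyme genes of the list were Mthfd2 at -0.55, Shmt2 at -0.54, Psat1 at -0.49, Asns at -0.35, Psph at -0.26 and Phgdh at -0.22, all called, and they were picked for their role after their values were seen. The 3 that rose were Sqstm1, the autophagy receptor p62, at 1.05, Slc7a11, the cystine importer, at 0.86, and Fgf21 at 1.71, which was under 1 CPM in both groups. In NMuMG, 12 of 27 were higher and 7 lower, with a median of 0.10 (all genes 17.6% and 17.4%). Slc7a11 (1.85), its partner Slc3a2 (0.82), the glycine transporter Slc6a9 (0.78) and the secreted stress factor Gdf15 (0.70) rose. The value of Slc7a11 was imprecise (SE 0.32), with a mean of 35.6 CPM and an SD of 19.1 with obese secretome. Psat1 (-0.41), Shmt2 (-0.41), Pck2 (-0.43) and Asns (-0.17) fell. The interaction between the lines was called lower in E0771 for 16 of 28 and higher for 2, where 15.5% of all genes were lower and 18.8% higher.

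Targets of CHOP and death genes had 7 tested members in each line. In E0771, 4 were higher with lean than with obese secretome and 3 lower, where 52.7% of all genes were called. The proapoptotic Pmaip1 (0.89), the death receptor gene Tnfrsf10b (0.80), the oxidase gene Ero1a (0.66) and Bcl2l11 (0.14) rose, and Bbc3 (-0.59), Gadd45a (-0.42) and the survival gene Bcl2 (-0.39) fell. In NMuMG, Tnfrsf10b (0.47), Ero1a (0.29) and Pmaip1 (0.24) were higher and the other 4 were not called, where 35.0% of all genes were called. Ddit3 itself had been called in NMuMG and not in E0771.

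The other arms of the unfolded protein response, read through 16 ATF6 and XBP1 genes, also had a different balance in the lines. In E0771, 3 were higher with lean than with obese secretome and 8 lower (all genes 25.8% and 26.9%). Herpud1 of protein degradation was at -1.19 and Xbp1 at -0.89, while Sec24d, also higher in NMuMG, was at 0.72. In NMuMG, 10 were higher and 2 lower (all genes 17.6% and 17.4%), with Sdf2l1 at 0.53, Sec24d at 0.45 and the chaperone gene Hspa5 at 0.26. Hspa5 in E0771 was at -0.15. The interaction was called lower in E0771 for 10 of the 16 and higher for 1 (all genes 15.5% and 18.8%).

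Among leucine zipper genes that can pair with ATF4 or CHOP, 5 of 14 tested in E0771 were higher with lean than with obese secretome and 5 lower, where 52.7% of all genes were called. The AP-1 genes Fosl1 (1.06) and Jun (0.53) rose with Atf3, and Fos did too, at under 1 CPM in both groups. Jdp2 (-1.05), a repressor of AP-1, and Cebpg (-0.46) fell. In NMuMG 4 of 15 were higher and 7 lower, where 35.0% of all genes were called. Fos was higher there too, at 0.77, whereas Jun was at -0.30 and Creb1 at -0.40. Of 4 paralogs of the members tested in E0771, 3 were lower with lean than with obese secretome (Trib2 at -0.89, Sesn1 at -0.43 and Trib1 at -0.32). In NMuMG 2 of 6 were higher and 2 lower, with Ddit4l at 0.38, Sesn3 at 0.16, Sesn1 at -0.39 and Trib1 at -0.27. Chac2, the paralog of Chac1, was at 15.9 CPM with lean and with obese secretome in E0771, differed by -0.10 in NMuMG and was called in neither line.

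The gamma-glutamyl cycle, in which Chac1 acts, had 9 tested genes in E0771, of which 6 were higher with lean than with obese secretome and 2 lower (all genes 25.8% and 26.9%). Those higher included Gclm (1.43) and Gclc (0.67), the subunits of glutamate-cysteine ligase, Gss (0.66), glutathione synthetase, and Ggct (1.03), which acts after gamma-glutamyl transfer. Ggt5 (-1.11) and Oplah (-0.57) were lower. In NMuMG 4 of 7 were higher, where 17.6% of all genes were, and 3 were not called. The 4 were Gclc (0.99), Gss (0.68), Gclm (0.48) and Gsr (0.18), glutathione reductase. Lean secretome thus raised Gclc, Gclm and Gss relative to obese secretome in both lines, while Chac1 fell in E0771 and was not called in NMuMG.

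**Figure D4:**
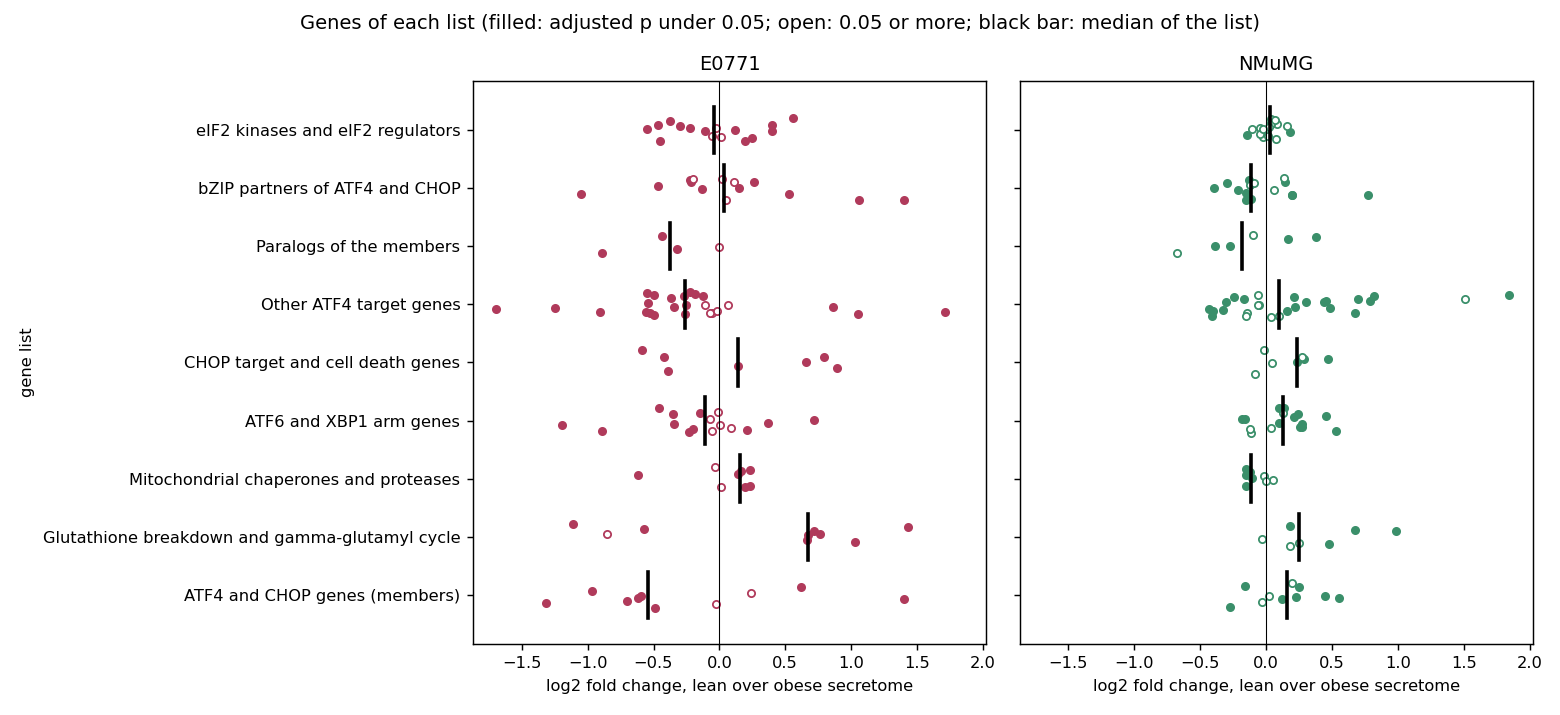
Log2 differences of lean minus obese secretome for the genes of each list in E0771 and NMuMG, with 1 point per gene and a line at the median. The other ATF4 target genes have a median of -0.26 in E0771 and 0.10 in NMuMG, and the ATF6 and XBP1 genes -0.11 and 0.13.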

How the data were processed

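Poly(A) RNA was sequenced from 12 SkBr3, 9 E0771 and 9 NMuMG libraries. The deposited values are raw read counts per Ensembl gene, whole numbers that the authors made with cutadapt 1.16, STAR 2.7.9a and featureCounts 1.6.3 on GRCm39, per the submitters' processing notes. The human build, annotation release and strand setting are not given in the sources used here. The library kit was directional, per the labels' protocols. Mouse IDs were named, and lengths taken, from GENCODE M21, which matched 52073 of 56980 IDs holding 99.68% of the counts. The human members were taken by their Ensembl IDs, and no other human gene was named.

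Each line was fitted with all 3 media in edgeR 4.0.16 (R 4.3.3): filterByExpr, TMM, estimateDisp and a robust quasi-likelihood test, Benjamini-Hochberg adjustment over all genes of a comparison and a threshold of 0.05. Differences between the mouse lines came from 1 fit of 18 libraries. Likeness to Chac1 used log2 CPM with a prior count of 2 over genes with a mean of at least 2. On simulated counts with 200 changed genes in E0771 (13813 genes), 78% of genes changed 1.5-fold and 90% of those changed 2-fold were recovered for lean minus obese, and 8.20% of calls were false. In the data 52.7% of genes were called in that comparison, a far larger share, so these rates do not carry over to the reported calls. Same-numbered replicates of different media had residual correlations from -0.0942 to 0.110, so they were not treated as pairs. Alternatives were no filter, DESeq2 1.42.0, its size factors, only the groups compared, a replicate block and leaving out each library.

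The members and lists were chosen with earlier results of these data known. Members are named in full. The list genes named include some of those with the largest called changes, but not all. Others were picked for their role after their values were seen. Precision rests on counts of reads without molecular identifiers.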

Additional observations from a re-analysis of the deposited data

Results flagged for a closer look

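The effect of lean secretome differed between E0771 and NMuMG for 9 members against obese secretome and for 9 against control medium, by the interaction test in edgeR. These comparisons share their lean libraries. The values are E0771 minus NMuMG, on the log2 scale. For lean against obese secretome the interaction was -1.49 for Chac1, -1.19 for Sesn2, -1.15 for Trib3, -0.70 for Ddit4, -0.46 for Ddit3, -0.41 for Atf4 and -0.31 for Cebpb. It was 1.40 for Atf3 and 0.41 for Ppp1r15a. For lean secretome against control medium it was -1.17 for Sesn2, -1.12 for Chac1, -0.88 for Trib3, -0.75 for Ddit4, -0.29 for Atf4 and -0.19 for Cebpb. It was 1.62 for Atf3, 0.63 for Ppp1r15a and 0.42 for Atf5. The interaction of Cebpb against control medium (adjusted p = 0.0358, edgeR with Benjamini-Hochberg adjustment) was lost in 8 of 22 alternatives, each with 1 library left out (adjusted p 0.0535 to 0.158). These were E0771 control replicates 2 and 3, E0771 lean replicates 1 and 3, NMuMG control replicates 1 and 3 and NMuMG lean replicates 1 and 2.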

How the results depend on the processing

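All 8 calls in each lean comparison of E0771 held in each of 14 alternatives, and over all members and comparisons 29 of 2118 values changed sign. Each of the 29 came from leaving out 1 library and belonged to a difference near 0 with no call. The lowest and highest values with 1 library left out were -0.036 and 0.032 for ATF3 (SkBr3 lean minus control), -0.032 and 0.080 for SESN2 (SkBr3 obese minus control), -0.027 and 0.060 for Atf3 (NMuMG lean minus obese), -0.13 and 0.049 for Ddit3 (E0771 lean minus obese) and -0.085 and 0.085 for Ddit3 (E0771 lean minus control). For obese minus control in E0771 they were -0.034 and 0.14 for Ddit3, -0.030 and 0.083 for Atf5, -0.13 and 0.12 for Chac1, -0.049 and 0.040 for Sesn2 and -0.0018 and 0.067 for Ddit4. In NMuMG they were -0.060 and 0.0022 for Atf4, -0.10 and 0.058 for Ppp1r15a and -0.073 and 0.051 for Cebpb. For Sesn2 they were -0.021 and 0.074 (interaction, obese minus control) and -0.011 and 0.072 (lines in control medium).

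The count of members called for obese minus control, 0 in each line, became 1 with no filter on low counts and with only the 2 groups compared in each line (TRIB3 or Trib3 higher in SkBr3 and E0771, Chac1 lower in NMuMG), and 1 with DESeq2 in E0771. With 1 library left out, counts for lean minus obese, lean minus control and obese minus control ranged over 4 to 6, 4 to 5 and 0 to 1 (SkBr3), 8 to 9, 8 to 9 and 0 to 1 (E0771) and 5 to 7, 5 to 7 and 0 to 1 (NMuMG). In SkBr3 the call for obese minus control appeared without lean replicate 3. The interaction counts ranged from 7 to 10, 8 to 9 and 0 to 0, and the count in control medium from 8 to 9.

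With the replicate block, counts in the same order were 5, 4 and 0 (SkBr3), 9, 9 and 0 (E0771), 7, 7 and 0 (NMuMG) and 10, 9 and 0 (interactions). The block added Atf5 in E0771 (adjusted p = 0.00423 against obese and 0.00266 against control) and in the lean minus obese interaction (adjusted p = 0.00642). It cannot adjust the contrast between the lines in control medium, since replicate numbers are nested in a line, and was not run there. The causes of these changes were not tested. Among the members, the SE of lean minus obese was highest for Chac1 in both mouse lines (0.143 in E0771 and 0.135 in NMuMG), at levels under 11 CPM in every library.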

Other observations

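Over the 9 E0771 libraries, the genes whose log2 CPM followed that of Chac1 most closely, of 9548 ranked, were Eml2 (Pearson's r 0.99), Slc5a5 (0.99), Rpl34 (0.99), Appl2 (0.99) and Fis1 (0.99). Slc5a5, the sodium iodide symporter gene, had means of 10.6 CPM in control medium, 3.61 with lean and 9.96 with obese secretome. The members nearest to Chac1 were Ddit4 at rank 183 (r 0.96) and Sesn2 at rank 226 (r 0.96), and Atf3 stood at rank 9099 (r -0.94). In NMuMG, over 9 libraries and 10191 genes, the closest were Cnpy2, Grb7, Ip6k2, Alb and Tle6 (r 0.92 to 0.93), and the nearest member was Atf5 at rank 741 (r 0.53). By Spearman's rho the first 5 genes shared only Eml2 with the Pearson list in E0771 and only Ip6k2 in NMuMG. The nearest member by rho was Cebpb in E0771 (rank 134, rho 0.87), with Ddit4 at rank 690 and Sesn2 at rank 1091. In NMuMG it was Trib3 (rank 1075, rho 0.43), with Atf5 at rank 1175. The libraries fall into 3 media, so these values are descriptions of a shared pattern over media.

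Mitochondrial chaperones and proteases, which ATF5 is known to regulate, had 8 tested genes. With lean against obese secretome 5 were higher and 1 lower in E0771 (all genes 25.8% and 26.9%), where Hspd1 and Clpx were both at 0.23 and Trap1 at -0.62. In NMuMG 5 were lower, where 17.4% of all genes were, and 3 were not called, with Trap1 at -0.16 and Hspd1 and Hspa9 at -0.15. The interaction was called higher in E0771 for 5 of the 8 and lower for 1 (all genes 18.8% and 15.5%).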
